A study of Mus musculus with 8 samples.

Results

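*Eps8* (epidermal growth factor receptor pathway substrate 8), its 3 relatives *Eps8l1*, *Eps8l2* and *Eps8l3*, and the partners *Abi1*, *Sos1* and *Baiap2* were followed in tumors formed by disseminated tumor cells (DTC tumors) and in mammary tumors. *Eps8* was chosen by its difference between these same tumors, since the study listed it among its top differentially expressed genes, and the other 6 genes were added as its family and its known partners. A gene was read from a probe set whose annotation lists that symbol alone, taking the highest mean over the 8 arrays where there was a choice. This gave a value for 4 of the 7 genes, *Eps8*, *Abi1*, *Sos1* and *Baiap2*, each with a single such probe set, out of 22180 genes measured in this way. *Eps8l1*, *Eps8l2* and *Eps8l3* lie only on probe sets that also list a second RNA, and these are described by probe set.

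RNA came from 4 DTC tumors and 4 mammary tumors grown under the skin of NSG mice, which lack mature T, B and NK cells but keep myeloid cells, and each tumor was hybridized to an Affymetrix mouse gene array. All tumor cells derived from BALB-neuT mice, a strain in which the mammary tumor virus promoter drives an activated rat *Her2/neu* oncogene, and were injected in Matrigel with bFGF. DTC tumors arose from 3000000 to 5000000 bone marrow cells per the labels, which call the cells early, whereas the methods of the study obtained such tumors from older donors that carried invasive carcinomas. For the mammary tumors the labels give an injection of 100000 cells and cultured TUBO cells of BALB-neuT origin as the source, whereas the methods describe cells of primary mammary tumors from BALB-neuT mice. If the labels hold, the 4 mammary tumors came from 1 cell line, and its traits cannot be told apart from those of mammary tumors. Whether each tumor grew in a mouse of its own is not stated, and p-values measure only the spread among these tumors.

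Eps8 binds actin filaments. It caps their fast-growing barbed ends and bundles them, and it is a substrate of the EGF receptor kinase. Together with Abi1, an adaptor that is also a subunit of the WAVE complex, and Sos1, an exchange factor best known for Ras, it forms a complex that activates the GTPase Rac and so the growth of branched actin at the cell edge. With Baiap2 (IRSp53), which bends membranes through its I-BAR domain, Eps8 bundles filaments in filopodia. Abi1 also releases the capping activity of Eps8. In microvilli and in the stereocilia of the inner ear Eps8 sets the length of the actin core.

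*Eps8* was higher in every DTC tumor than in any mammary tumor, whereas the values of *Abi1*, *Sos1* and *Baiap2* in both groups overlapped. The log2 signal of *Eps8* was 8.95, 8.01, 8.31 and 8.14 in DTC tumors 1 to 4. In mammary tumors 1 to 4 it was 6.69, 6.14, 6.69 and 6.05. DTC tumor 1 stood above the other DTC tumors, mammary tumors 1 and 3 lay above 2 and 4, and 1.32 log2 units separated the lowest DTC tumor from the highest mammary tumor. DTC tumors averaged 8.35 ± 0.42 (SD, n = 4) and mammary tumors averaged 6.39 ± 0.34 (SD, n = 4), a difference of 1.96 on the log2 scale or 3.89-fold. The study picked *Eps8* on this contrast, so the difference is given as a description and no test is attached to it. With 1 tumor left out at a time it lay between 1.76, without DTC tumor 1, and 2.07, without DTC tumor 2.

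**Figure D1:**
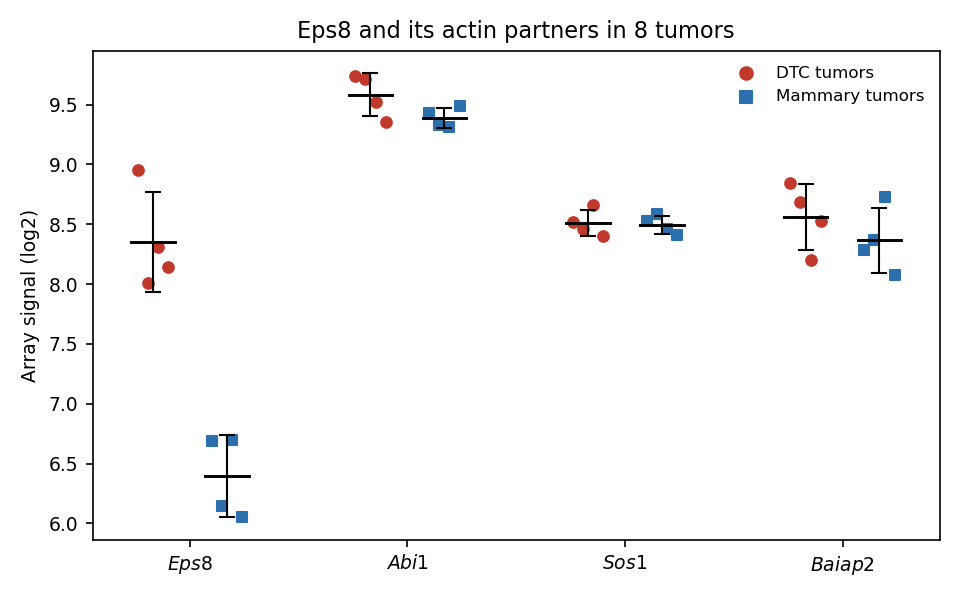
Log2 array signal of *Eps8*, *Abi1*, *Sos1* and *Baiap2* in 4 DTC tumors (circles) and 4 mammary tumors (squares), with the mean (line) and SD (bar) of each group. The *Eps8* values of DTC tumors start at 8.01 and those of mammary tumors end at 6.69, while the groups overlap for the other 3 genes.

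*Abi1*, the adaptor that links Eps8 to Sos1, had log2 signals of 9.74, 9.71, 9.52 and 9.35 in DTC tumors 1 to 4. The mammary tumors had 9.43, 9.33, 9.31 and 9.49. DTC tumors 1 to 3 lay above every mammary tumor, and DTC tumor 4 lay within their range. The difference was 0.19 (95% interval -0.06 to 0.45, adjusted p = 0.576 from limma). An interquartile range over the 8 arrays above 0.25, the filter of the study's methods, was needed for the main fit, and *Abi1* (0.22) and *Sos1* (0.10) did not reach it. Their intervals and p-values come from limma without that filter. *Abi1* lies on chromosome 2, on which 784 expressed protein-coding genes (mean log2 signal of at least 6) had a median difference of 0.12 and 73.7% of them were higher in DTC tumors; the part of this shift in the value of *Abi1* was not tested.

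*Sos1*, which loads Ras and, in the complex with Eps8 and Abi1, Rac with GTP, varied least. Its log2 signals were 8.52, 8.46, 8.66 and 8.40 in DTC tumors 1 to 4 and 8.53, 8.58, 8.46 and 8.41 in mammary tumors 1 to 4. All 8 values lay within 0.26 of each other, with neither group to one side. The difference was 0.02 (95% interval -0.20 to 0.23, adjusted p = 0.972 from limma without the filter).

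*Baiap2*, the membrane-bending partner, had log2 signals of 8.84, 8.68, 8.20 and 8.53 in DTC tumors 1 to 4. In mammary tumors it had 8.28, 8.37, 8.73 and 8.08. The highest mammary tumor exceeded all DTC tumors but the first, and the SD was 0.28 in DTC tumors and 0.27 in mammary tumors. The difference of 0.20 (95% interval -0.24 to 0.64) did not pass over the 18877 probe sets tested with limma (adjusted p = 0.728). Over the 18877, 25 probe sets (0.132%) were called, with a log2 difference of 1 or more in size and an adjusted p no higher than 0.05. *Baiap2*, the partner that could be tested there, was not among them. The upper bounds of the intervals of *Abi1*, *Sos1* and *Baiap2*, 0.45, 0.23 and 0.64, lay below 1. The groups overlapped for all 3. They did not for 16.0% of the 8282 genes that passed the filter, which *Baiap2* but neither *Abi1* nor *Sos1* did, so an overlap was the common case.

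None of the 3 probe sets that list an Eps8-like gene was higher in every DTC tumor than in every mammary tumor. Among the 18877 probe sets that passed the filter 727 were, so this is the common case. Eps8l1, Eps8l2 and Eps8l3 share the domain plan of Eps8, and Eps8l2 is known from stereocilia. In each case the second symbol is a long non-coding RNA gene in the RefSeq table, so a signal cannot be assigned to either RNA. Probe set 17484852, listed with *Eps8l2* and *B230206H07Rik*, had log2 signals of 8.48, 8.55, 8.53 and 8.39 in DTC tumors 1 to 4 and 8.79, 8.74, 8.94 and 8.96 in mammary tumors 1 to 4. Every DTC tumor lay below every mammary tumor, as for 1160 of the 18877 probe sets past the filter, of which this is 1. The difference was -0.37 (standard error 0.15), which did not pass over all probe sets (adjusted p = 0.296 from limma).

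Probe set 17473310, listed with *Eps8l1* and *D630041G03Rik*, stood at 6.49, 6.15, 6.31 and 6.58 in DTC tumors and at 6.72, 6.53, 6.56 and 6.54 in mammary tumors, a difference of -0.20 (adjusted p = 0.572 from limma without the filter). Probe set 17401590, listed with *Eps8l3* and *4933431E20Rik*, stood at 5.16, 5.33, 4.94 and 5.01 in DTC tumors and at 5.05, 5.06, 5.38 and 4.67 in mammary tumors, a difference of 0.07 (adjusted p = 0.920 from limma without the filter). In both of these the groups overlapped.

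**Figure D2:**
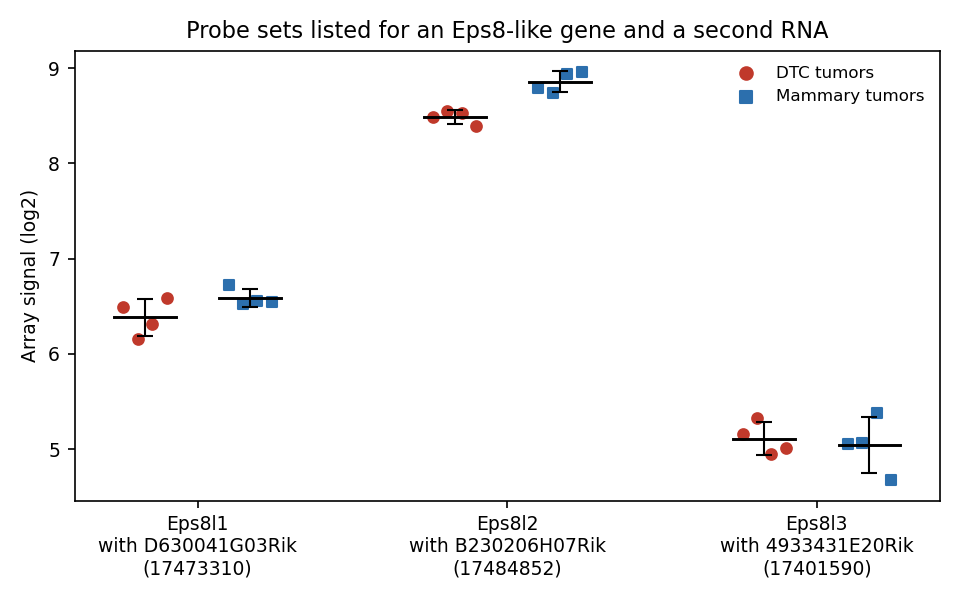
Log2 array signal of the 3 probe sets that list an Eps8-like gene together with a long non-coding RNA, in 4 DTC tumors (circles) and 4 mammary tumors (squares), with the mean (line) and SD (bar) of each group. The groups are apart only for the probe set of *Eps8l2* and *B230206H07Rik*, where DTC tumors are lower by 0.37 on the log2 scale. Groups are apart for 10.0% of the 18877 probe sets past the filter.

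The genes whose profile over the 8 arrays lay nearest to that of *Eps8* were *Chst2*, *Ndrg1*, *Adm*, *Bnip3* and *Pfkfb3*. Nearness was the root mean square difference of log2 values after each gene was centred on its own mean, over 22179 other genes, so it favours genes with a group difference of similar size. *Chst2*, a sulfotransferase that modifies carbohydrate chains, lay at 0.31, *Ndrg1*, a stress-responsive gene, at 0.33 and *Adm*, a vasodilator peptide, at 0.34. *Bnip3* of mitophagy lay at 0.40 and *Pfkfb3* of glycolysis control at 0.41. Of the 5, all but *Chst2* are in the study's list of top genes, and *Ndrg1*, *Adm*, *Bnip3* and *Pfkfb3* are known to be induced by hypoxia.

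*Chst2* had log2 signals of 9.28, 8.32, 8.61 and 7.88 in DTC tumors and 7.23, 6.62, 7.46 and 6.86 in mammary tumors. DTC tumor 1 was the highest of all for each of the 5 genes, as it was for *Eps8*. In mammary tumors the order differed between genes: *Adm* was highest in tumor 2 (7.41) and lowest in tumor 4 (6.30), whereas *Ndrg1* was lowest in tumor 2 (7.31) and highest in tumor 3 (8.44). These genes were selected for their likeness over the same arrays, so no test was made.

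**Figure D3:**
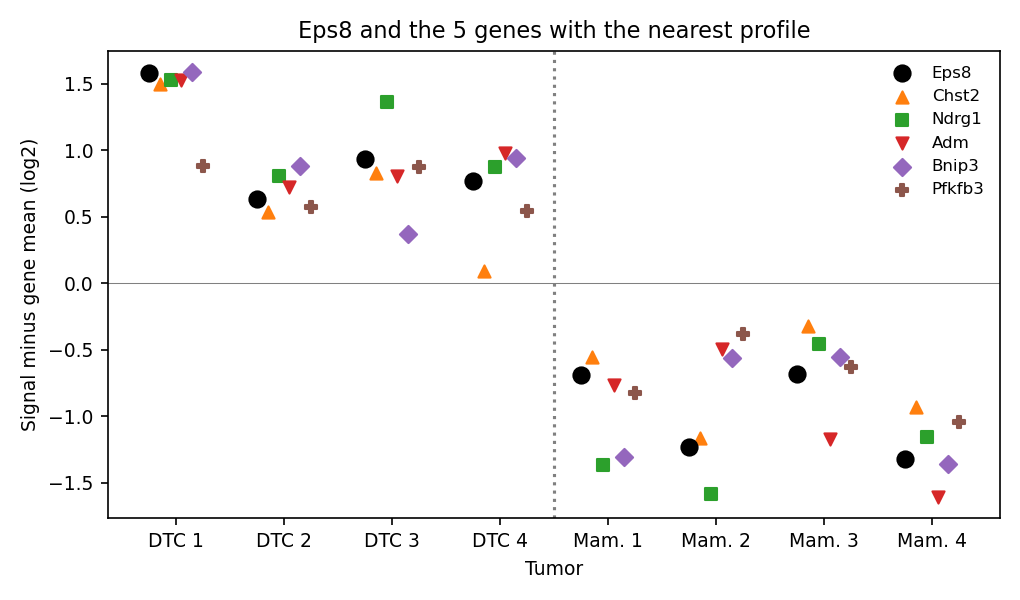
Log2 signal of *Eps8* and its 5 nearest genes in each tumor, minus the mean of that gene over the 8 arrays. All 6 genes are above 0 in the 4 DTC tumors and below 0 in the 4 mammary tumors, and each is at its highest in DTC tumor 1.

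The genes beside *Eps8* on chromosome 6 differed less than *Eps8* itself. *Eps8* was chosen for its large difference between these tumors, so smaller values beside it follow from that choice. Of the 5 measured protein-coding genes on each side, the next neighbours were *Ptpro*, a receptor tyrosine phosphatase, at 0.14 and *Strap*, an adaptor of kinase signalling, at 0.22. On the *Strap* side the others ranged from -0.09 (*Dera*) to 0.16 (*Slc15a5*). On the *Ptpro* side *Rerg* stood at 0.30 and *Arhgdib* at 0.78. *Arhgdib* had 6.99, 6.64, 6.99 and 6.88 in DTC tumors and 6.27, 6.23, 6.04 and 5.83 in mammary tumors, so the groups did not overlap, but it did not pass over all probe sets (standard error 0.17, adjusted p = 0.102 from limma). With 1 probe set per gene in the fit it did (adjusted p = 0.0255 from limma, the lowest of alternatives that reached 0.288), and it was named after its value was seen. Over the 504 expressed protein-coding genes of chromosome 6 the median was -0.01, and 46.0% were higher in DTC tumors.

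**Figure D4:**
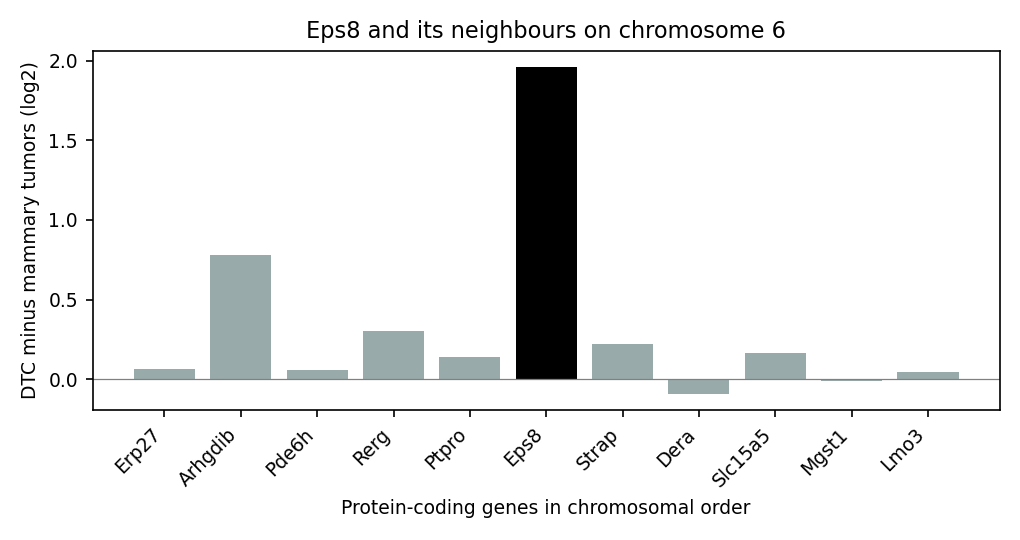
Difference in mean log2 signal, DTC minus mammary tumors, for *Eps8* (black) and the 5 measured protein-coding genes on each side of it (grey), in chromosomal order without scale. *Eps8*, which was chosen on this contrast, stands at 1.96, and its neighbours lie between -0.09 and 0.78.

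Of 94 further genes of actin and Rac control in 9 lists, 87 were measured. Only the 34 past the filter were tested, and 0 of these passed the adjusted p in either direction. Of the 8282 genes that passed the filter, 10 higher and 13 lower genes passed the adjusted p. A count of 0 among 34 therefore does not set these lists apart. The mean was higher in DTC tumors for 48 of the 87 (55.2%) and the median difference was 0.03, against 51.7% and a median of 0.01 over all 22180 genes. The filter left 34 for limma, of which 1 higher and 4 lower genes had an unadjusted p no higher than 0.05. This is 14.7%, against 19.8% of the 8282 genes that passed the filter. The groups did not overlap for 5 of the 34 (14.7%), against 16.0%.

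Among genes around the Eps8, Abi1 and Sos1 complex, the mean was higher for 6 of 9 measured and lower for 3, and the median difference was 0.09. *Egfr*, the receptor whose kinase phosphorylates Eps8, had the most negative difference of the 87 genes. Its log2 signals were 6.73, 6.90, 8.20 and 7.998 in DTC tumors and 8.39, 8.25, 8.43 and 8.25 in mammary tumors. DTC tumors 1 and 2 were far below the mammary tumors and DTC tumors 3 and 4 just below them. The difference was -0.87 (standard error 0.31), and it did not pass (adjusted p = 0.261 from limma). *Pik3r1*, the regulatory subunit of PI3-kinase, stood at -0.33 (adjusted p = 0.385 from limma). The paralogs *Abi2* and *Sos2* stood at 0.09 and -0.10, and *Usp6nl*, a GTPase-activating protein for Rab5 that binds Eps8, at 0.25.

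In the WAVE complex and N-WASP list, which turns Rac and Cdc42 signals into branched actin, 9 of 10 measured genes were higher by their means and the median was 0.17. Only *Wipf1*, a WASP-binding protein, at 0.30 and the WAVE subunit *Cyfip2* at 0.04 passed the filter, with adjusted p = 0.605 and 0.959 from limma. The Arp2/3 list held genes of the complex that nucleates the branches and *Cttn* (cortactin, at -0.12). It had 3 of 7 measured genes higher and a median of -0.01, with *Arpc5l* at 0.26 (adjusted p = 0.532 from limma). *Actr2*, *Arpc1b* and *Arpc3* of this list gave no value. *Wipf1*, *Arpc5l* and *Usp6nl* lie on chromosome 2, as *Abi1* does, where most expressed genes were higher in DTC tumors. *Gsn*, named below, lies there too but was lower, at -0.20. The part of the chromosome 2 shift in their values was not tested.

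The I-BAR relatives of Baiap2 were lower in DTC tumors by their means, 4 of 4 genes with a median of -0.24. However, *Baiap2l2* differed by only -0.003, and none of the 3 past the filter passed the adjusted p. *Baiap2l1*, at -0.27, did not reach the filter. *Mtss1*, an I-BAR protein, had log2 signals of 10.59, 10.69, 10.79 and 10.86 in DTC tumors and 11.17, 10.88, 11.15 and 11.49 in mammary tumors. The groups were apart by a narrow margin, and the difference of -0.44 did not pass (standard error 0.17, adjusted p = 0.289 from limma). *Mtss1l* (now *Mtss2*) stood at -0.22 (adjusted p = 0.697 from limma), and *Baiap2* itself at 0.20.

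Among the proteins that share activities with Eps8, barbed-end capping and severing genes had 4 of 12 higher and a median of -0.07, with *Gsn* (gelsolin) at -0.20 and *Capg* at -0.11 (adjusted p = 0.723 and 0.876 from limma). Of 9 filament bundling genes 6 were higher, with a median of 0.04. *Espn*, which encodes the bundling protein espin of microvilli and stereocilia, had 6.43, 6.48, 6.32 and 6.48 in DTC tumors and 5.79, 5.76, 6.14 and 5.77 in mammary tumors. Every DTC tumor was above every mammary tumor, with mammary tumor 3 nearest to them, and the difference of 0.56 did not pass (standard error 0.16, adjusted p = 0.167 from limma). *Lcp1*, the plastin of blood cells, stood at -0.31 with every DTC tumor below every mammary tumor, and it did not pass (adjusted p = 0.376 from limma).

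Genes of filament elongation had 6 of 10 higher and a median of 0.07, and the largest differences past the filter were those of the formin *Diaph3* at -0.41 and the profilin *Pfn2* at -0.29 (adjusted p = 0.331 and 0.566 from limma). Of 11 partners in microvilli and stereocilia 7 were higher, with a median of 0.05. Most of these 7, namely *Myo3a*, *Myo3b*, *Myo1a*, *Cdhr2* and *Cdhr5*, averaged below 4 in both groups. Signals so dim lie close to the floor, so this count and median were not read as a change in expression. The cadherin *Cdhr2* at 0.21 and the scaffold *Ush1c* at -0.20 (adjusted p = 0.694 and 0.651 from limma) were the largest that passed the filter.

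**Figure D5:**
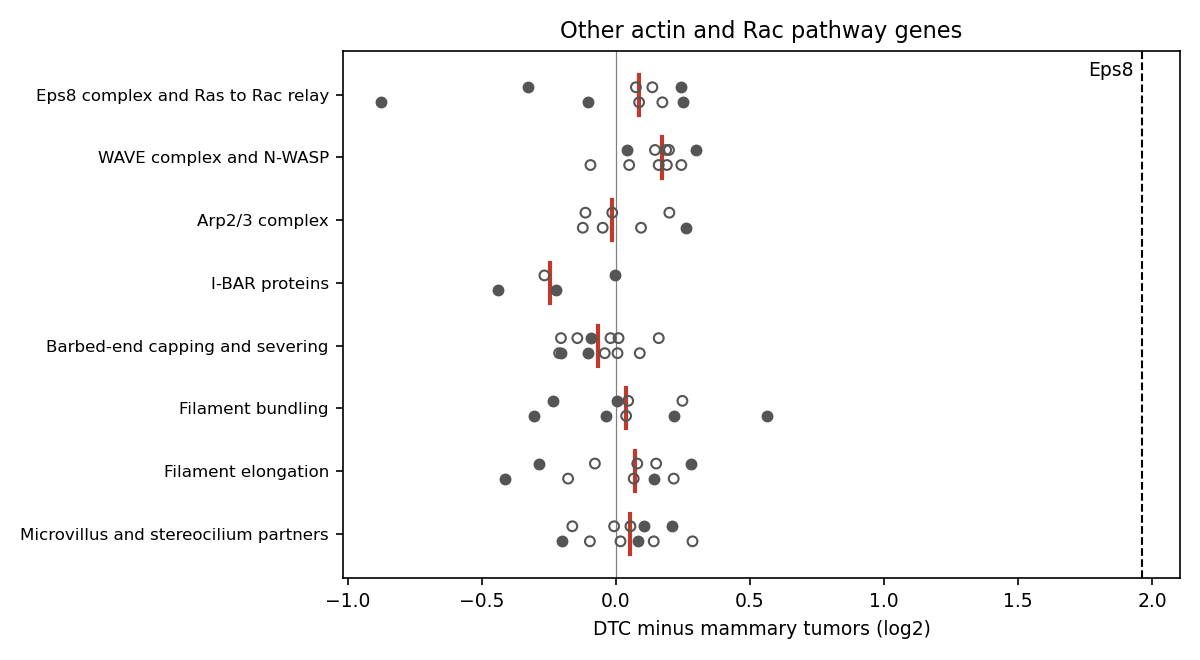
Differences in mean log2 signal, DTC minus mammary tumors, of the measured genes in 8 of the 9 lists of actin and Rac control; a filled point passed the interquartile filter and was tested, an open point was not, and the bar is the median of the list. These genes lie between -0.87 and 0.56, and the dashed line marks *Eps8*, which was chosen on this contrast, at 1.96.

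Markers of the cell types that a subcutaneous tumor can hold were read beside *Eps8*, since in a whole tumor fewer cells of a type and less RNA per cell cannot be told apart. The epithelial genes *Krt8*, *Krt18*, *Epcam*, *Cdh1*, *Cldn3* and *Erbb2* averaged above 10 in both groups. *Krt19* averaged 4.80 in DTC tumors and 4.68 in mammary tumors. The log2 of the summed signal of the 8 epithelial markers was 13.4 to 13.6 in DTC tumors and 13.5 to 13.6 in mammary tumors. The means of 3 of these markers were higher in DTC tumors and those of 5 lower, with *Epcam* at -0.38 and *Cldn3* at -0.39. For both, every DTC tumor lay below every mammary tumor, but neither passed (adjusted p = 0.288 and 0.308 from limma).

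The summed signal of 5 myoepithelial markers, 3 higher and 2 lower, was 9.49 to 10.0 in DTC tumors and 8.61 to 9.29 in mammary tumors and so did not overlap. *Acta2*, smooth muscle actin, set this sum with a difference of 1.01 (adjusted p = 0.148 from limma). *Krt14* averaged 3.81 in DTC tumors and 3.93 in mammary tumors, and *Trp63*, *Oxtr* and *Myh11* differed by 0.04, 0.03 and -0.05. The gap in the sum thus rests on *Acta2* and not on the list as a whole. The 6 fibroblast markers, 2 higher and 4 lower, summed to 11.3 to 11.8 in DTC tumors and 11.6 to 12.1 in mammary tumors. *Lum* stood at -1.23 with the groups apart, and *Dcn* at -0.85 with an overlap. Neither passed in the main fit (adjusted p = 0.128 and 0.245 from limma). Macrophage and monocyte markers, 4 of 7 higher, summed to 11.7 to 12.3 in DTC tumors and 11.4 to 12.2 in mammary tumors. The sums of endothelial markers (3 of 5 higher), skeletal muscle markers (4 of 5 higher, 2 with means below 4) and fat cell markers (2 of 5 higher) also overlapped between the groups. Array values have a floor above 0, so no marker was read as absent. The part of these cells in the difference of *Eps8* was not tested.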

How the data were processed

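RNA of 4 DTC and 4 mammary tumors was measured on MoGene 2.0 ST arrays. The deposited log2 values of 41345 probe sets were normalized by the authors in oneChannelGUI with the sketch-quantile method; how probes were summarized, and with which versions, is not given in the sources used here. Across probe sets, pairs of arrays correlated at 0.977 to 0.985 for DTC tumors, 0.979 to 0.988 for mammary tumors and 0.975 to 0.984 for pairs of both kinds. The number of arrays limits the precision. Per the labels, 500 ng of RNA was used per array, and the methods of the study give another amount.

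Of the probe sets, 23521 listed 1 gene symbol, 1820 several and 16004 none in the platform annotation. Biotypes, chromosomes, gene order and older symbols came from RefSeq (GRCm38.p6). Of 94 list genes 87 were matched, and 1 of the 9 lists is counted in the totals but not reported here by itself; the red blood cell markers lay only on probe sets with several symbols and gave no value. With lmFit and eBayes of limma 3.58.1 (R 4.3.3, Benjamini-Hochberg adjustment), 18877 probe sets whose interquartile range exceeded 0.25 were tested, and probe sets outside this filter in a fit of all probe sets. The filter and the thresholds followed the methods of the study. Differences are DTC minus mammary tumors. The steps were tested on simulated data. Members and lists were chosen with earlier results of these data known. Named are the members, of each pathway list those past the adjusted p or otherwise the 2 with the largest absolute difference past the filter, and the 5 genes nearest to *Eps8*; other genes were named with their values known. The alternatives changed the filter (also for dim probe sets), the number of probe sets per gene, the normalization, the variance model and array weights, added a replicate block or left out each tumor in turn.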

Additional observations from a re-analysis of the deposited data

Results flagged for a closer look

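In the 70 groups of 4 tumors checked, for the 35 genes or probe sets whose alternatives were run, 2 held a tumor far from the other 3, and chance flags about 1 group in 20. For *Espn* mammary tumor 3 (6.14) stood above the other mammary tumors (5.76 to 5.79), with a gap of 0.926 of the range of the group. Without that tumor the difference of *Espn* was 0.65. For probe set 17473310, listed with *Eps8l1* and *D630041G03Rik*, mammary tumor 1 (6.72) stood above the others (6.53 to 6.56), with a gap of 0.833 of the range.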

How the results depend on the processing

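Over 17 alternatives the difference of *Eps8* ranged from 1.76 to 2.07, that of *Abi1* from 0.14 to 0.27, that of *Sos1* from -0.03 without DTC tumor 3 to 0.05 without DTC tumor 4, and that of *Baiap2* from 0.10 without mammary tumor 4 to 0.32 without DTC tumor 3, the last with an adjusted p of 0.449 to 0.913 from limma. The groups overlapped for the 3 partners also with median centring and with cyclic loess. Alternatives were run for 35 genes and probe sets, which do not include every gene given with a value, and of their 595 differences 589 kept their sign and side of the threshold or moved by less than the replicate SD. A change of filter, of probe sets per gene, of variance model or the replicate block cannot alter a difference of means. A gene that had not passed and then left the filter was also counted as kept. The count of 589 therefore overstates how stable the differences were. With 1 tumor left out *Cyfip2* ranged from -0.057 to 0.16 and was negative without DTC tumor 2 (-0.018), DTC tumor 4 (-0.057) or mammary tumor 2 (-0.055), and *Capg* ranged from -0.23 to 0.022, the latter without DTC tumor 4. *Gsn* ranged from -0.33 without DTC tumor 2 to -0.056 without DTC tumor 3, *Wipf1* from 0.12 without DTC tumor 4 to 0.48 without DTC tumor 3, *Cdhr2* from 0.097 without DTC tumor 4 to 0.34 without DTC tumor 2, and *Mtss1l* from -0.41 without DTC tumor 4 to -0.14 without DTC tumor 3. *Pfn2* reached -0.44 without mammary tumor 4, *Ush1c* ranged from -0.31 without DTC tumor 2 to -0.13 without DTC tumor 1, probe set 17473310 reached -0.12 without DTC tumor 2, and probe set 17401590 ranged from -0.056 without mammary tumor 4 to 0.18 without mammary tumor 3. *Arhgdib* and *Lum* passed the adjusted p with 1 probe set per gene (0.0255 and 0.0424 from limma, with 0.288 and 0.289 as the highest over all alternatives). The count of called probe sets was 15 with a range above 0.5, 86 with 1 probe set per gene, 57 with a trended robust variance, 46 with array weights and 217 at an unadjusted p of at most 0.05 with the same fold threshold. It was 15, 10 and 47 without DTC tumors 1, 2 and 3, and 11, 16 and 9 without mammary tumors 1, 2 and 3. With the replicate number as a block it was 7. Deviations of same-numbered tumors correlated at 0.01, 0.01, 0.17 and 0.19, and 4 of 8 tumors correlated best with their own number. The numbers were not taken as pairs in the main fit. With only 8 tumors, these correlations cannot decide whether same-numbered tumors belonged together. No other probe set with a single member symbol was found, so that choice gave no alternative. The cause of these changes was not tested.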
